A study of Mus musculus with 6 samples.

Results

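The potassium channel genes outside the Kv3 and GIRK families were examined in sorted nuclei of prefrontal Foxp2 neurons. Members were the rows of the deposited count table whose symbols name a potassium channel subunit of the families Kcna, Kcnb, Kcnd, Kcnf, Kcng, Kcnh, Kcnj, Kcnk, Kcnma, Kcnn, Kcnq, Kcns, Kcnt, Kcnu and Kcnv, or an auxiliary subunit of the families Kcnab, Kcne, Kcnip and Kcnmb. Kcnj3, Kcnj6 and Kcnj9 were left out. The choice used symbols only and gave 85 of the 24421 genes in the table, of which 70 encode pore or pore-like subunits and 15 auxiliary subunits. Kcnj5, which also encodes a GIRK subunit, is kept by this rule. All 6 libraries were made from mPFC (medial prefrontal cortex) tissue of Foxp2-Cre mice that had received, bilaterally, an adeno-associated virus expressing GFP fused to KASH, a domain that anchors proteins in the nuclear envelope. Tissue was taken 4 weeks after that injection. The CFA group (complete Freund's adjuvant, which induces lasting inflammation and pain) and the saline group had 3 libraries each. Each library held RNA from 10000 sorted nuclei, so the values are nuclear RNA. The age and sex of the mice, the time of CFA or saline relative to collection, and whether each library came from a separate animal or a pool are not stated in the labels. The p-values therefore rest on a spread between libraries that may be technical only.

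Potassium channels let potassium leave a neuron and so oppose its excitation. Voltage-gated (Kv) channels open on depolarization and set spike threshold, spike width and firing rate. Calcium-activated and sodium-activated channels shape the hyperpolarization after spikes, while inward rectifiers (Kir) and two-pore-domain (K2P) channels set the resting potential. Auxiliary subunits alter the gating or traffic of the pore subunits. In layer 6 corticothalamic neurons, the class that Foxp2 marks, these channels help to set how cortical output reaches the thalamus.

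Total counts were between 9673038 and 11850741 per library. Slc17a7, the vesicular glutamate transporter of cortical excitatory neurons, was at 1929 to 2643 CPM (counts scaled to a common library size and composition) in the CFA libraries and 1945 to 2288 CPM in the saline libraries, and Foxp2 was at 24.0 to 34.9 and 28.2 to 43.6 CPM. Lists of markers of other cells were summed per library. Astrocyte markers summed to 211 to 298 CPM under CFA against 183 to 191 CPM under saline, without overlap, and 5 of 8 had a positive log2 fold change. Most of this sum was Aldoc (mean 150 CPM). Aqp4, Aldh1l1 and Gja1 overlapped between groups, with log2 fold changes of -0.10, -0.06 and -0.20. Oligodendrocyte precursor markers summed to 25.9 to 38.8 and 16.0 to 22.9 CPM, also without overlap, and 3 of the 4 tested were positive. Most of this sum was Olig1 (mean 16.5 CPM), and Pdgfra, Olig2 and Gpr17 were each at 0 in a saline library. Cspg4 was lower in CFA without overlap, with means of 1.75 and 3.77 CPM. The layer 6b neuron marker sum was lower in CFA, at 121 to 196 against 198 to 310 CPM. The upper layer sum was higher, at 371 to 389 against 288 to 335 CPM. Each sum was mostly 1 gene, Ctgf (mean 163 CPM) and Lamp5 (mean 263 CPM). In the upper layer list 3 of 5 markers were positive, with Cux1 at -0.21 and Rorb at -0.007, and 0 had an unadjusted p under 0.05. In the layer 6b list 1 of 5 was positive. Layer 6 corticothalamic markers overlapped, at 606 to 690 and 615 to 798 CPM. Microglia markers summed to 94.0 to 142 and 73.3 to 107 CPM and inhibitory neuron markers to 112 to 185 and 113 to 170 CPM. Striatal projection neuron markers summed to 862 CPM in saline replicate 1, against 236 to 434 CPM in the other 5 libraries. All 7 tested striatal markers had negative log2 fold changes, 5 of them at an unadjusted p under 0.05. Saline replicate 3 stood apart from most libraries over all genes. Its chi-square per degree of freedom was 22.1 against CFA replicate 1 and 32.9 to 45.9 against the other 4, while pairs without it had 16.4 to 27.0. In bulk nuclei, fewer cells of a type and less RNA per cell cannot be told apart.

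The family as a whole was broadly transcribed but unevenly so. Of the 85 genes, 14 had a mean of at least 100 CPM over the 6 libraries, 46 of at least 10 CPM, and 26 were under 1 CPM. The filter on low counts was passed by 62 genes. The other 23 had means of at most 1.02 CPM, and 6 of them had 0 counts in every library, which allows up to 0.249 to 0.304 CPM per library. Levels were compared between genes as CPM per kb of exon. On that scale the 15 highest genes held 64.7% of the summed level of all 85. The summed level was 985, 1002 and 1072 CPM per kb in CFA replicates 1 to 3 and 898, 1001 and 965 CPM per kb in saline replicates 1 to 3. The groups overlapped, since saline replicate 2 was above CFA replicate 1.

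**Figure D1:**
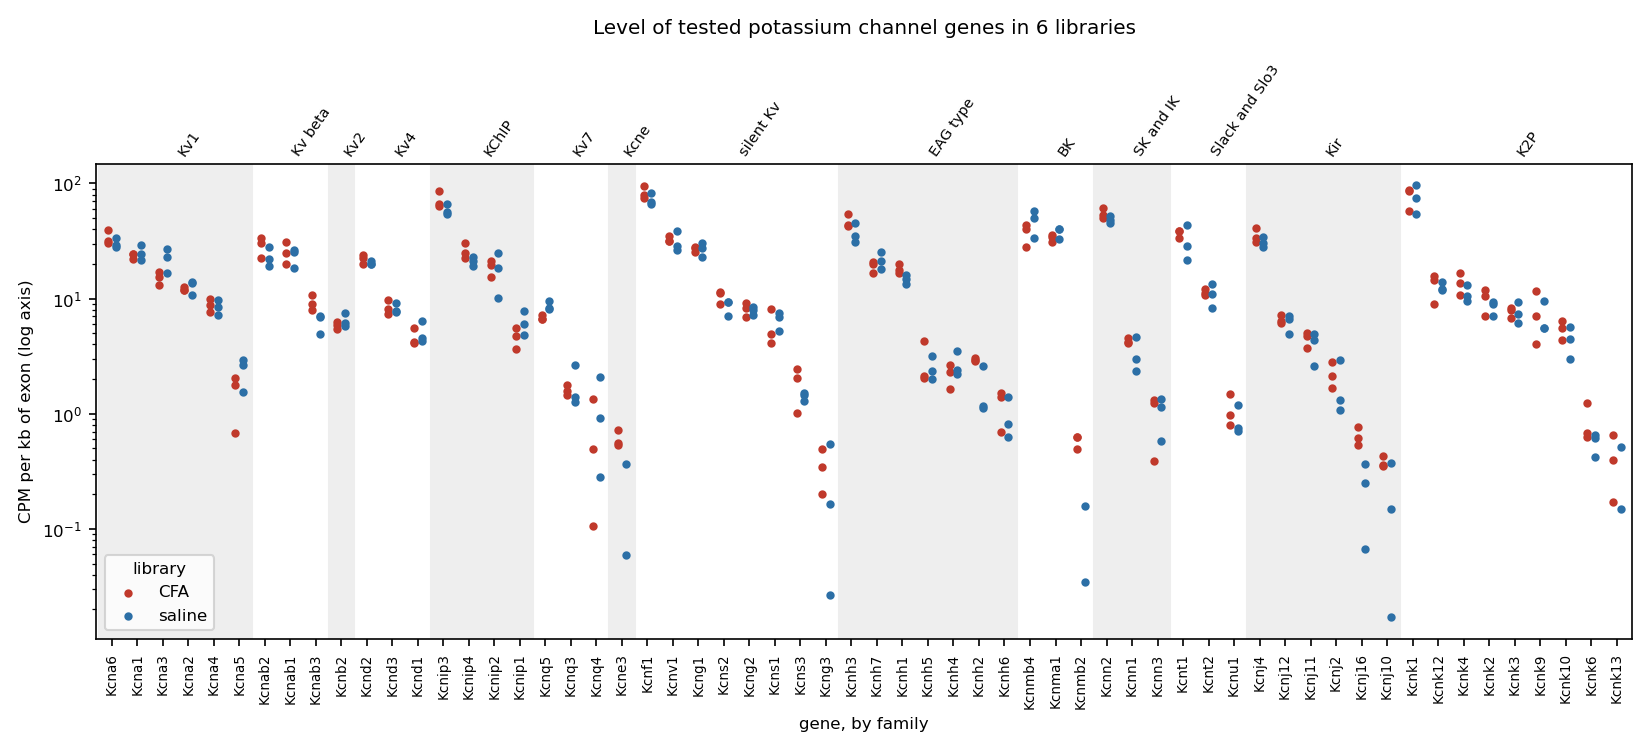
Level of 60 of the 62 tested genes in CPM per kb of exon (log axis) by family, with 1 point per library (CFA red, saline blue, libraries at 0 not drawn). Kcnf1, Kcnk1 and Kcnip3 have the highest means and Kcnj10 and Kcng3 the lowest of the tested genes.

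The highest levels per kb belonged to an electrically silent subunit, a leak channel and a calcium-sensing auxiliary subunit. Kcnf1, which forms no channel alone but joins Kv2 subunits, had a mean of 77.7 CPM per kb (range over libraries 65.8 to 95.3). Kcnk1, a weakly conducting K2P subunit, had 76.3 CPM per kb (54.6 to 96.3), and Kcnip3, a Kv4 partner also known as calsenilin and DREAM, had 65.3 CPM per kb (53.8 to 85.1). These 3 ranges overlap, so their order is not fixed. Kcnn2, a small-conductance calcium-activated (SK) channel, followed at 51.7 CPM per kb (45.2 to 60.8). Per-kb levels depend on the gene models of the table. The deposited exon length was 19.6% of the GENCODE exon length for Kcnq3, 27.4% for Kcnn2, 30.2% for Kcnmb4 and 9.83% for Kcnk9. It was 100% for Kcnf1, 103% for Kcnk1 and 101% for Kcnip3, but 188% for Kcna1.

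Bases before the start of transcription are shown for 4 genes because genes of high level differed widely in their CG dinucleotides, the sites of DNA methylation, which are dense in many promoters. Each line holds the 250 bases upstream of the RefSeq start (GRCm38.p6, the assembly of mm10), read 5′ to 3′ on the strand of the gene, with every CG in capitals. Kcnf1 lies on the minus strand (chr12:17176889-17177138), Kcnk1 on the plus strand (chr8:125994852-125995101), Kcnmb4 on the minus strand (chr10:116473524-116473773) and Kcna3 on the plus strand (chr3:107035912-107036161).
Kcnf1: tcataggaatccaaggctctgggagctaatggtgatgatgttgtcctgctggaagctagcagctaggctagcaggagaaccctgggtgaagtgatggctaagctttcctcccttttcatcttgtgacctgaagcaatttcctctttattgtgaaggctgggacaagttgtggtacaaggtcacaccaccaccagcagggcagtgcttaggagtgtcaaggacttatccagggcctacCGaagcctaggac
Kcnk1: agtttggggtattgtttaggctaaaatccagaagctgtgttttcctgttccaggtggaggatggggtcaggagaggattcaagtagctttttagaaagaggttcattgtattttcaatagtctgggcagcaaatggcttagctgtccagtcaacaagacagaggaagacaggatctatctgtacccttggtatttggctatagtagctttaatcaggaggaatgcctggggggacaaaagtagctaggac
Kcnmb4: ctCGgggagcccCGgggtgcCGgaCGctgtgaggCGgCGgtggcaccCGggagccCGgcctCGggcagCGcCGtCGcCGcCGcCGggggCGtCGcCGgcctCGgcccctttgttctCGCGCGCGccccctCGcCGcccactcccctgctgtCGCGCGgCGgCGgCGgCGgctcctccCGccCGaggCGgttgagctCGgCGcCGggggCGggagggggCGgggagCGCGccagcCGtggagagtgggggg
Kcna3: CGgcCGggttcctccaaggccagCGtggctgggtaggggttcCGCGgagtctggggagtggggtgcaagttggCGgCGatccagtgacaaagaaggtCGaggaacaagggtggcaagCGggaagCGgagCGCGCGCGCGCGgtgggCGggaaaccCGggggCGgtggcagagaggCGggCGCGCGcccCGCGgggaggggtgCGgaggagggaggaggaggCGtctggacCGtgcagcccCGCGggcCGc

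The Kcnf1 window held 1 CG and the Kcnk1 window 0, while those of Kcnmb4 (42.2 CPM per kb) and Kcna3 (18.7 CPM per kb) held 43 and 31. Windows were matched for 61 of the 85 genes. The 42 that passed the low-count filter had a median of 14 CG and the 19 that did not had a median of 6. Over all genes with a window, the medians were 16 for 10274 tested and 3 for 6915 untested genes. At least 10 CG were found in 57.1% of the tested potassium channel windows, against 74.8% of all tested windows, and in 15.8% of the untested ones, against 15.7%. Kcnf1, Kcnk1 and Kcnip3 (4 CG), the highest genes, each held fewer CG in this window than the median of the untested potassium channel windows. Other genes among the 15 highest held many, with 43 for Kcnmb4, 35 for Kcnj4 and 31 for Kcnma1. Bases after the start were not counted. The cAMP response element TGACGTCA, which reads the same on both strands, was in none of the 61 windows and in 2.05% of all 17189 windows, a statement on these letters in this window only.

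**Figure D2:**
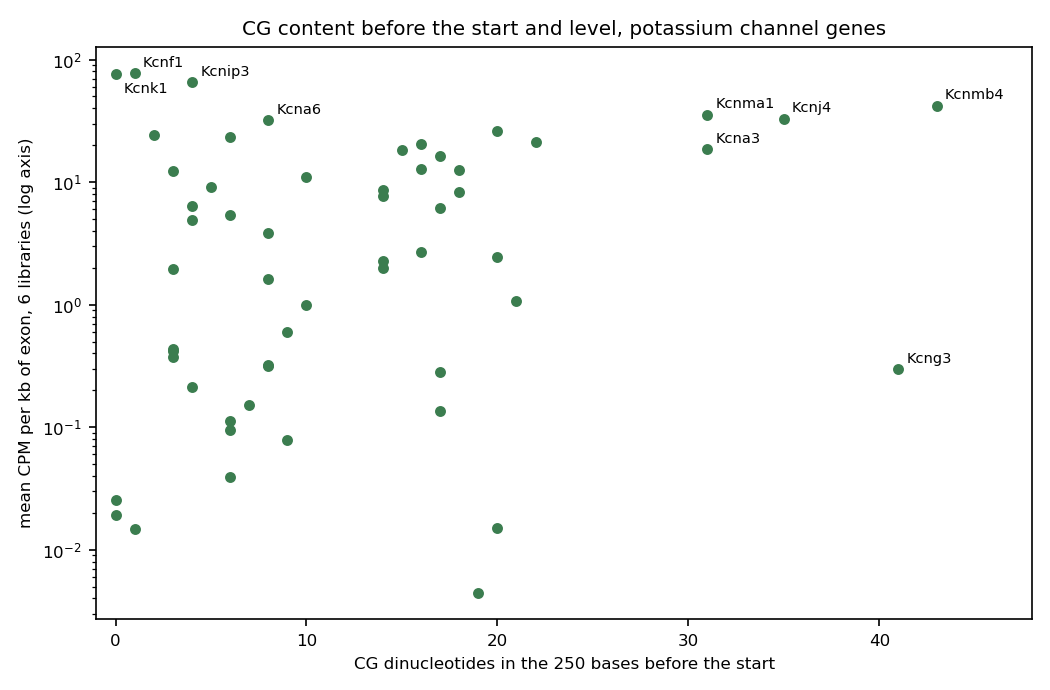
CG dinucleotides in the 250 bases before the start (x axis, number) against the mean level over 6 libraries (y axis, CPM per kb, log axis), with 1 point per potassium channel gene that has a window and at least 1 count. Kcnk1, Kcnf1 and Kcnip3 sit at the left with 0, 1 and 4 CG and the highest levels, and Kcng3 with 41 CG sits low at 0.297 CPM per kb.

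CFA and saline libraries were compared to ask which of these channel transcripts differ in Foxp2 neurons of mice given CFA. None was called: 0 of 62 tested genes passed 0.05 after Benjamini-Hochberg adjustment over the 13560 genes of the edgeR quasi-likelihood fit, where 0.0% of genes were called, and the smallest adjusted p among the 62 was 1.0. DESeq2 and limma-voom also called 0 of the 62. Before adjustment 4 genes lay under 0.05, with Kcnmb2, Kcnh2 and Kcnab3 on the higher side in CFA and Kcna3 on the lower. Of all genes tested, 3.22% had such a p, 1.35% on the higher and 1.87% on the lower side. The values of the 2 groups did not overlap for 7 of the 62, 6 higher and 1 lower, against 7.5% of all genes (3.53% higher and 3.97% lower). A positive log2 fold change was found for 45 and a negative one for 17, where 49.8% of all genes were positive. Kcnmb2 and Kcne3, counted on the higher side in both tallies, passed the filter on low counts only through their CFA libraries. Kcnj5, lower in CFA without overlap, did not pass it. The filter thus shaped these tallies in part, and also the 4 genes under 0.05, which include Kcnmb2. The median log2 fold change (CFA minus saline) was 0.13, against -0.0011 for all genes tested. Leaving out each library in turn gave 1 to 7 genes at an unadjusted p under 0.05, with 1 without CFA replicate 3, 2 without CFA replicate 1 or saline replicate 1, and 7 without saline replicate 3. Over all genes such p-values made up 2.11% without CFA replicate 3, 2.94% without CFA replicate 1, 3.91% without saline replicate 1 and 6.75% without saline replicate 3. Kcnmb2 was among the genes in all 6 of these fits. Kcna3 was among them only without CFA replicate 1 or saline replicate 2, Kcnab3 only without CFA replicate 2 or saline replicate 3, and Kcnh2 only without saline replicate 3.

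**Figure D3:**
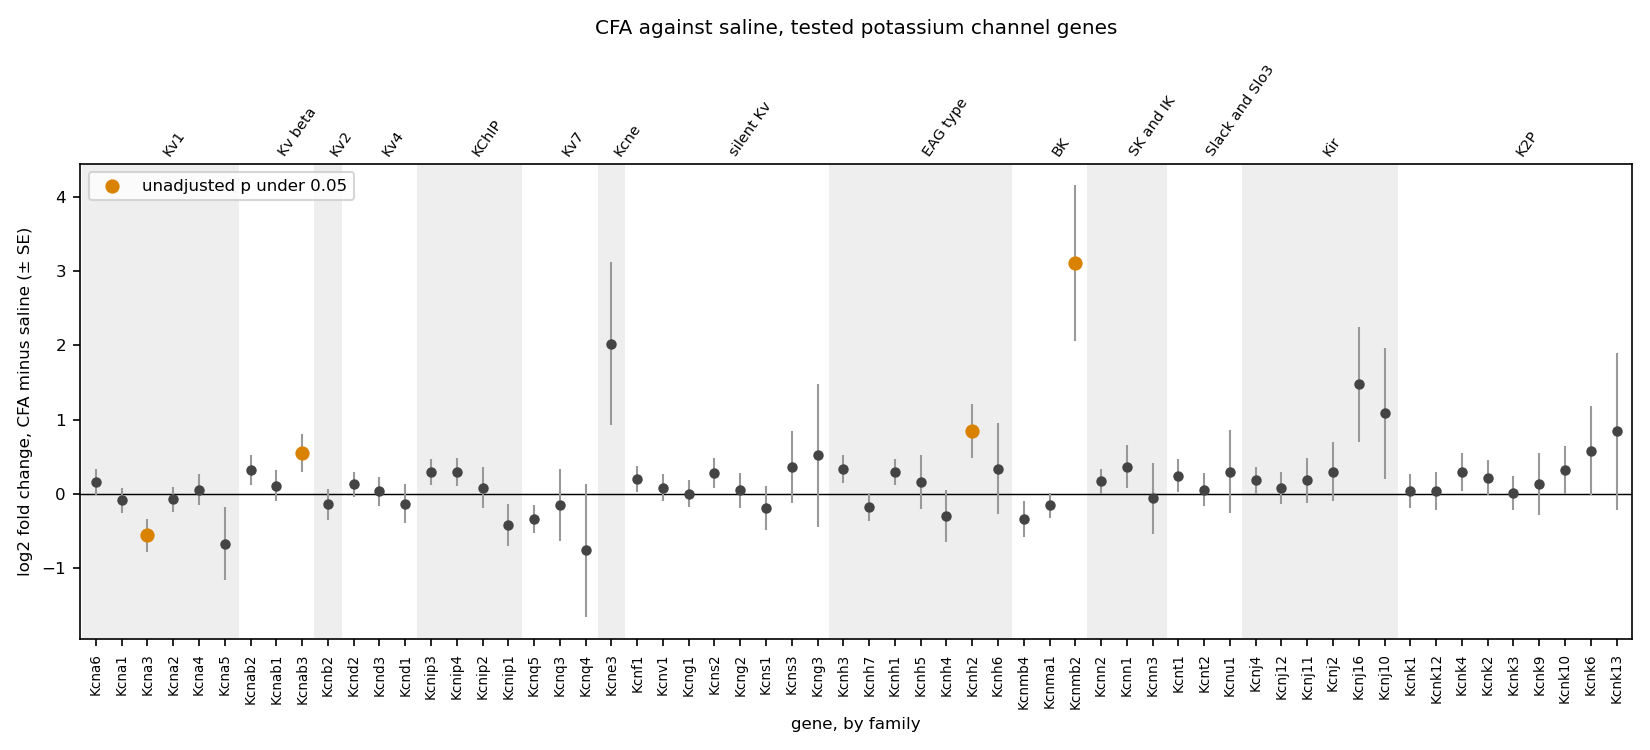
Log2 fold change (CFA minus saline) with its standard error for 60 of the 62 tested genes by family, with the 4 genes at an unadjusted p under 0.05 in orange. Most points lie within 0.4 of 0, and the wide bars belong to genes with few counts, such as Kcnmb2, Kcne3, Kcnj16 and Kcnj10.

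Saline replicate 1 held the lowest value of 24 of the 62 genes (38.7%), while it held the lowest value of 18.4% of all genes tested. The highest value lay in that library for 3 of the 62, or 4.84%, against 19% of all genes. CFA replicates 2 and 3 held the highest value of 15 and 14 of the 62. Potassium channel genes took 0.376% of the counts of saline replicate 1 and 0.414% to 0.442% of the other 5. The same library had the highest sum of striatal projection neuron markers, given above, and the part of that in the result was not tested. Without saline replicate 1, 38 of 64 tested genes were positive and the median log2 fold change was 0.08. Without CFA replicate 1 the count was 37 of 64, with a median of 0.135, and with any other library left out it was 42 to 47.

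**Figure D4:**
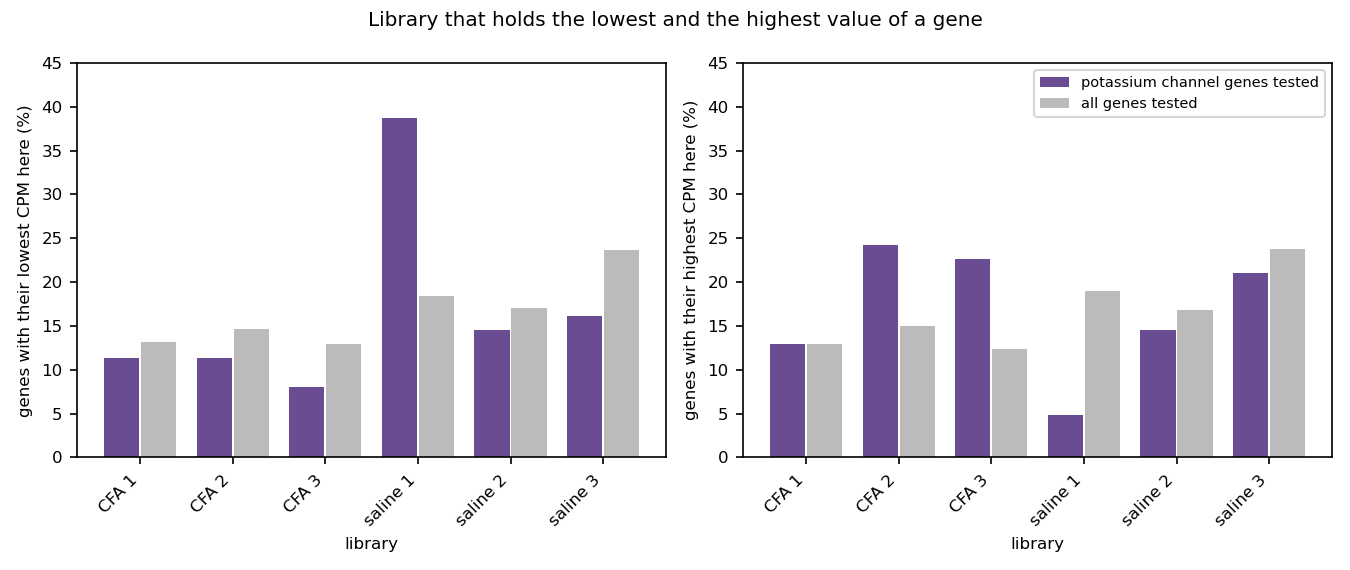
Share of genes (%) whose lowest (left) or highest (right) CPM falls in each library, for the 62 potassium channel genes (purple) and all genes tested (grey). Saline replicate 1 has the lowest value of 38.7% of the potassium channel genes against 18.4% of all genes.

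Kv1 subunits, which form low-threshold channels of axons and set spike initiation, were led by Kcna6 and Kcna1. The order of these 2 depends on the gene models. The deposited exon length was 188% of the GENCODE exon length for Kcna1 and 98.2% for Kcna6, which lowers the per-kb level of Kcna1. In CPM, Kcna1 had the higher mean, at 218 against 187. The shares below use the deposited lengths. Kcna6 held 35.5% ± 2.61 (SD, n = 3) of the summed Kv1 level per kb in CFA and 29.9% ± 2.52 in saline libraries, Kcna1 24.9% ± 2.41 and 24.8% ± 3.37, and Kcna2 12.8% ± 0.559 and 12.6% ± 1.21. Kcna6 (chromosome 6, 126708329 to 126740674, mm10) was at 185, 178 and 232 CPM in CFA replicates 1 to 3 and at 163, 194 and 172 CPM in saline replicates 1 to 3. These values overlap, with a log2 fold change of 0.17 ± 0.17 (SE). Kcna1, the gene of episodic ataxia, was at 197, 219 and 219 CPM under CFA against 195, 263 and 218 CPM under saline, a log2 fold change of -0.09 ± 0.17.

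Kcna3 was the gene with the smallest unadjusted p among those lower in CFA. It encodes a slowly inactivating Kv1 channel also known from lymphocytes and microglia. Kcna3 (chromosome 3, 107036162 to 107038129, a single exon) was at 33.2, 25.9 and 30.1 CPM under CFA against 45.6, 33.1 and 52.6 CPM under saline. CFA replicate 1 and saline replicate 2 were almost level, so the groups overlap by that pair. The means were 29.7 ± 3.65 and 43.8 ± 9.90 CPM (SD, n = 3). The log2 fold change of -0.56 ± 0.23 (SE) had an unadjusted p of 0.0266 by edgeR quasi-likelihood. The share of Kcna3 in the Kv1 level was 15.9% ± 1.75 in CFA and 22.0% ± 4.80 in saline libraries. Of 9 microglia markers, 8 had a positive log2 fold change, P2ry12 was at -0.39, and only Csf1r was at an unadjusted p under 0.05. Itgam was at 0 in saline replicates 1 and 2. The part of microglia in the Kcna3 difference was not tested. The neighbours of Kcna3 had values nearer 0 or few counts. Kcna2, which lies 63.4 kb downstream, had a log2 fold change of -0.07 ± 0.17, and Kcna10, 68.1 kb further on, was under the filter. In the other Kv1 cluster, on chromosome 6, Kcna5, Kcna1 and Kcna6 had log2 fold changes of -0.67 ± 0.49, -0.09 ± 0.17 and 0.17 ± 0.17, and Kcna5 was the lowest of these at 1.94 CPM per kb. Kcna4, the inactivating Kv1 subunit, was at 34.7 to 47.9 CPM over the 6 libraries, and Kcna7 had 0 counts.

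The Kv beta subunits, cytoplasmic partners of Kv1 that promote inactivation and surface traffic, all had positive log2 fold changes, as did 49.8% of all genes. Kcnab3 (chromosome 11, 69326258 to 69333041) was at 22.6, 20.0 and 27.4 CPM under CFA against 12.4, 17.4 and 17.8 CPM under saline. Every CFA library was above every saline library, with means of 23.3 ± 3.74 and 15.9 ± 3.01 CPM (SD, n = 3). Its log2 fold change was 0.55 ± 0.26 (SE), with an unadjusted p of 0.0475 by edgeR quasi-likelihood. Kcnab2, the most abundant of the family at 26.1 CPM per kb, was at 116, 85.4 and 127 CPM under CFA against 83.7, 73.0 and 106 CPM under saline. These values overlap, with a log2 fold change of 0.32 ± 0.20. Kcnab1 was close to it in level, at 24.3 CPM per kb, with a log2 fold change of 0.11 ± 0.21.

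Kv2 channels are the main delayed rectifiers of cortical cell bodies. They and the silent subunits that modify them included no gene whose groups did not overlap, against 7.5% of all genes. Among the silent subunits, Kcnf1 (chromosome 12, 17172100 to 17176888) was at 378, 360 and 456 CPM under CFA against 315, 396 and 328 CPM under saline. Saline replicate 2 was above CFA replicates 1 and 2, and the log2 fold change was 0.20 ± 0.18. Kcnb2, a Kv2 pore subunit, was at 28.9 to 40.0 CPM over the 6 libraries, or 6.17 CPM per kb, with a log2 fold change of -0.14 ± 0.21. Kcnv1, another silent subunit, was at 118 to 172 CPM (log2 fold change 0.08 ± 0.18), and Kcng1 was at 53.4 to 70.0 CPM (0.01 ± 0.19). Of 8 tested silent subunits 7 were positive, where 49.8% of all genes were, the exception being Kcns1 at -0.19 ± 0.30. The retinal subunit Kcnv2 had 0 counts.

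Kv4 channels carry the A-type current of dendrites, and KChIP proteins, encoded by the Kcnip genes, are their calcium-binding partners. Kcnd2 was at 103, 91.5 and 108 CPM under CFA against 90.9, 89.9 and 96.1 CPM under saline, a log2 fold change of 0.13 ± 0.17. It held 63.0% ± 5.38 and 60.5% ± 1.58 of the Kv4 level per kb, with Kcnd3 at 23.9% ± 3.27 and 24.5% ± 2.65. Kcnip3 (chromosome 2, 127456498 to 127522094) was at 238, 229 and 304 CPM under CFA against 192, 234 and 201 CPM under saline. Saline replicate 2 exceeded CFA replicate 2, and the log2 fold change was 0.30 ± 0.18. Kcnip4, which spans 896 kb, was at 56.2 to 89.6 CPM, with a log2 fold change of 0.30 ± 0.19. Kcnip1, known from interneurons, was lower on average in CFA libraries, at 10.7 to 16.3 CPM under CFA against 14.2 to 22.9 CPM under saline (-0.42 ± 0.29). Kcnip2 was lowest in saline replicate 3 at 25.0 CPM and highest in saline replicate 1 at 61.5 CPM. The summed KChIP level was 115, 118 and 131 CPM per kb in CFA and 108, 108 and 95.2 CPM per kb in saline libraries, without overlap. Sums were formed for every family, and this was the only one without overlap. Each of the 4 KChIP genes overlapped between groups when taken singly. The sum of the Kv4 genes was 35.0 to 35.4 and 32.1 to 35.2 CPM per kb.

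Kv7 channels carry the M-current, a brake on repetitive firing that muscarinic receptors close. Kcnq3, an M-channel subunit, was at 3.66 to 7.69 CPM, counted over the short gene model described above. Kcnq5 (chromosome 1, 21398403 to 21961942) was the only tested gene with all CFA libraries below all saline libraries. It was at 50.1, 46.7 and 46.3 CPM under CFA against 66.0, 56.6 and 58.2 CPM under saline, with means of 47.7 ± 2.10 and 60.3 ± 5.05 CPM (SD, n = 3). The log2 fold change was -0.34 ± 0.18 (SE), with an unadjusted p of 0.0871 by edgeR quasi-likelihood. Layer 6b markers were also lower in CFA libraries (1 of 5 positive, none at 0), and their part in this difference was not tested. Of the Kcne subunits, which modify Kv7 and other channels, Kcne2 was highest at 0.506 to 2.47 CPM and was under the filter. Kcne3 had 0.914 to 1.23 CPM under CFA against 0 to 0.626 CPM under saline.

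EAG-type channels, the Kcnh genes, include the ether-a-go-go, ERG and ELK groups, of which ERG channels help to end bursts of firing. Kcnh2, the ERG channel best known from cardiac repolarization (chromosome 5, 24319589 to 24351604), was at 13.2, 14.2 and 13.6 CPM under CFA against 5.18, 5.47 and 12.2 CPM under saline. The CFA libraries were close together, and saline replicate 3 lay near them while saline replicates 1 and 2 were far below. The means were 13.7 ± 0.485 and 7.60 ± 3.94 CPM (SD, n = 3). The log2 fold change of 0.85 ± 0.37 (SE) had an unadjusted p of 0.0354 by edgeR quasi-likelihood and was 1.36 without saline replicate 3, 0.64 without saline replicate 1 and 0.66 without saline replicate 2. Kcnh1, the ether-a-go-go channel, was at 121, 145 and 128 CPM under CFA against 117, 107 and 96.9 CPM under saline, without overlap, though CFA replicate 1 and saline replicate 1 were close. Its log2 fold change was 0.30 ± 0.17, with an unadjusted p of 0.103 by edgeR quasi-likelihood. Kcnh3, an ELK channel of the forebrain and the most abundant of the family per kb at 41.8, was at 157, 152 and 193 CPM under CFA against 110, 124 and 162 CPM under saline. Saline replicate 3 exceeded 2 CFA libraries, and the log2 fold change was 0.34 ± 0.19. Kcnh7, an ERG channel of neurons, had a log2 fold change of -0.18 ± 0.19, so ERG genes were found on both sides of 0.

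**Figure D5:**
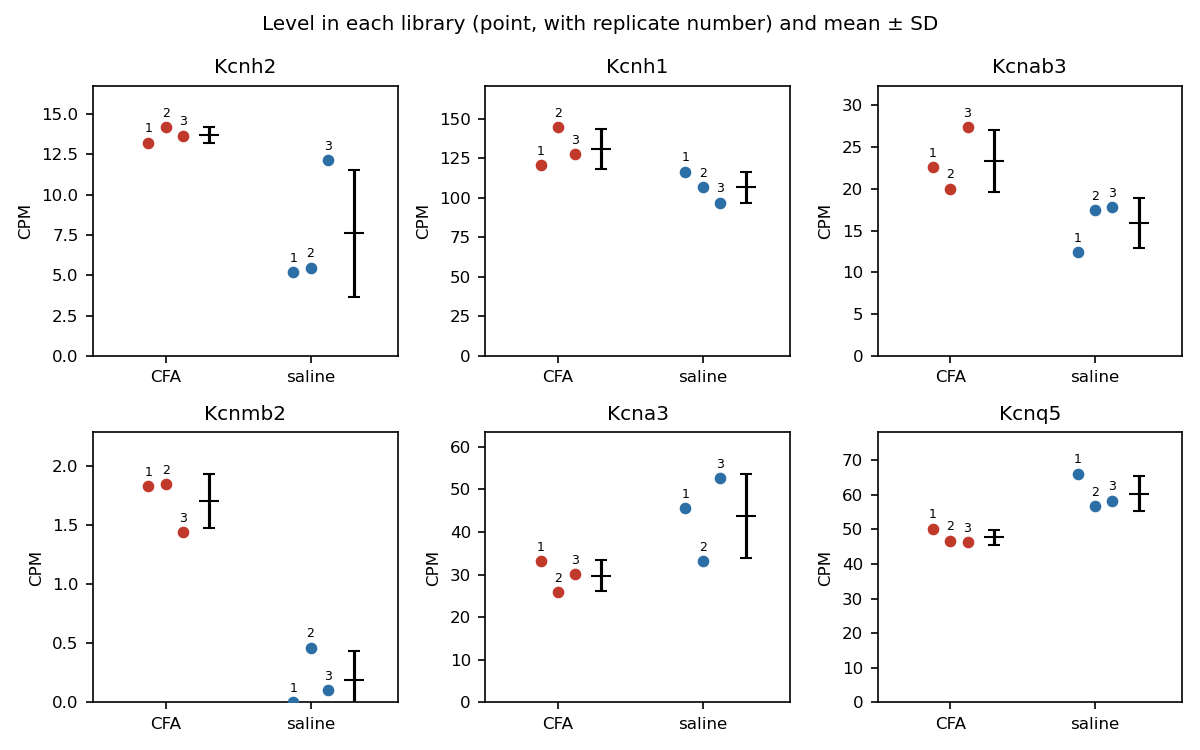
CPM of 6 genes in each library (point with its replicate number) and mean ± SD (n = 3) for CFA (red) and saline (blue), with the SD bar of Kcnmb2 in saline ending at 0. Kcnh2, Kcnh1, Kcnab3 and Kcnmb2 have all CFA points above all saline points, Kcnq5 has them all below, and Kcna3 overlaps by CFA replicate 1 and saline replicate 2.

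Calcium-activated channels comprise BK channels, which shorten spikes, and SK channels, which produce the afterhyperpolarization. Kcnma1, the BK pore, was at 282, 269 and 241 CPM under CFA against 256, 312 and 314 CPM under saline, a log2 fold change of -0.15 ± 0.17. Kcnmb4, its main neuronal beta subunit, was at 28.3, 44.0 and 40.1 CPM under CFA against 50.2, 58.1 and 33.7 CPM under saline. These overlap, with a log2 fold change of -0.34 ± 0.24. The exons of Kcnmb4 share 624 bases with Kcnmb4os1 and Kcnmb4os2 on the opposite strand, and reads of the 2 strands cannot be told apart here. Kcnmb2, an inactivating beta subunit, had 22, 21 and 15 counts under CFA against 0, 5 and 1 under saline, or 1.83, 1.85 and 1.44 CPM against 0, 0.463 and 0.101 CPM. All CFA libraries were above all saline libraries, and the gene passed the low-count filter only through its CFA libraries. The fitted log2 fold change of 3.11 ± 1.05 rests on these few counts and had an unadjusted p of 0.01 by edgeR quasi-likelihood. It was 2.53 without saline replicate 1 and 4.85 without saline replicate 2. Kcnmb4 made up 98.3% ± 0.401 of the beta subunit level per kb in CFA and 99.5% ± 0.488 in saline libraries. Inhibitory neuron markers overlapped between groups, with 7 of 7 positive, and the part of that in the Kcnmb2 difference was not tested. Kcnn2 was at 103, 108 and 124 CPM under CFA against 92.5, 98.3 and 108 CPM under saline. It held 91.0% ± 1.52 and 91.9% ± 2.61 of the SK level per kb, and its log2 fold change was 0.17 ± 0.17.

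Sodium-activated channels were represented by Kcnt1 and Kcnt2. Kcnt1, the Slack channel, was at 243, 207 and 239 CPM under CFA against 136, 178 and 269 CPM under saline. The saline libraries span both sides of the CFA libraries, with a log2 fold change of 0.24 ± 0.22. Kcnt2 was at 32.5 to 53.3 CPM over the 6 libraries, with both ends of that range in the saline group. Kcnu1, a sperm channel, was at 2.50 to 5.20 CPM.

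The Kir genes examined here leave out Kcnj3, Kcnj6 and Kcnj9, which are also inward rectifiers. Among those kept, Kcnj4 was the highest. It held 69.8% ± 2.43 of their summed level per kb in CFA and 69.8% ± 0.969 in saline libraries. Its mean was 33.0 CPM per kb, below that of Kcnj9 at 63.7. Kcnj4 was at 72.0, 87.5 and 66.9 CPM under CFA against 65.8, 73.7 and 60.0 CPM under saline, a log2 fold change of 0.18 ± 0.19. Kcnj11, the pore of the ATP-sensitive channel, was at 8.49 to 16.4 CPM, and its sulfonylurea receptor partner Abcc8 was at 45.4 ± 13.6 CPM under CFA and 51.3 ± 14.8 CPM under saline. The glial subunits were scarce. Kcnj10, the main potassium buffer of astrocytes, had 28, 22 and 20 counts under CFA against 9, 1 and 20 under saline, a log2 fold change of 1.08 ± 0.88 that was 0.55 without saline replicate 2 and 2.17 without saline replicate 3. Kcnj16, its partner, had 26, 35 and 26 counts under CFA against 3, 16 and 10 under saline, without overlap and with a log2 fold change of 1.48 ± 0.77 (an unadjusted p of 0.0757 by edgeR quasi-likelihood). The astrocyte marker sums given above, mostly Aldoc, did not overlap either. Of the 8 markers 5 were positive, 3 were at an unadjusted p under 0.05 and none was at 0 in any library. Their part in these differences was not tested. Kcnj2, 38.2 kb from Kcnj16 and a rectifier of excitable cells, was at 5.87 to 16.0 CPM, with both ends of that range in the saline group. Kcnj8, known from pericytes, had 0, 12 and 2 counts in CFA and 0 in all saline libraries. Of the 6 vascular markers, 5 were at 0 in at least 1 library. Kcnj5, under the filter, was at 0 to 0.384 CPM under CFA against 0.447 to 1.85 CPM under saline.

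K2P channels pass the background leak current. All 9 tested genes had positive log2 fold changes, from 0.01 to 0.84, where 49.8% of all genes were positive. None was at an unadjusted p under 0.05, against 3.22% of all genes, and none was without overlap, against 7.5%. Kcnk1 turned negative without CFA replicate 2, CFA replicate 3 or saline replicate 3, at -0.06, -0.05 and -0.15. Kcnk1 (chromosome 8, 125995102 to 126030688) was at 133, 202 and 200 CPM under CFA against 173, 222 and 126 CPM under saline, so that the lowest and the highest values were both saline. Its log2 fold change was 0.04 ± 0.23. It held 56.4% ± 6.76 and 58.4% ± 8.40 of the K2P level per kb. Kcnk12 (9.65% ± 3.02 and 10.0% ± 1.44) and Kcnk4 (TRAAK, 9.93% ± 0.962 and 8.85% ± 1.90) followed. Kcnk2 (TREK) came next, at 7.18% ± 1.24 and 6.65% ± 0.319. Kcnk4 and Kcnk2 are mechanosensitive channels. The acid-sensitive channels Kcnk3 and Kcnk9 had log2 fold changes of 0.01 ± 0.23 and 0.14 ± 0.42. Kcnk13, a microglial channel, had 15, 6 and 21 counts under CFA against 18, 5 and 0 under saline, which overlap. Its log2 fold change of 0.84 ± 1.06 was 2.36 without saline replicate 1, 0.36 without CFA replicate 3 and 0.28 without saline replicate 3. Kcnk18, known from sensory neurons, had 0 counts.

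Partner proteins of these channels were examined as a list of 31 genes, of which 28 passed the filter. None was at an unadjusted p under 0.05 in either direction, against 3.22% of all genes, 12 were positive and 16 negative, and the median log2 fold change was -0.02. Among them Dpp10, a Kv4 partner, was at 253 ± 16.3 CPM under CFA and 268 ± 32.4 CPM under saline (SD, n = 3), and Amigo1, a Kv2 partner, was at 137 ± 24.4 and 123 ± 6.06 CPM. Nedd4l, a ubiquitin ligase, was the only partner without overlap, where 7.5% of all genes had none, at 102 ± 11.8 and 120 ± 3.94 CPM. Of the 7 Kv3 and GIRK genes 4 were positive and 3 negative. Kcnc2 had means of 28.4 ± 4.09 and 17.7 ± 0.535 CPM and differed by 0.68 ± 0.23 (log2), with an unadjusted p of 0.00936 by edgeR quasi-likelihood. Kcnj6 was lower on average in CFA, at 30.2 ± 3.15 and 42.3 ± 12.5 CPM with overlap, and its log2 fold change was -0.48 ± 0.24.

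Spread between libraries was compared with that of other genes. Over the 46 potassium channel genes of at least 10 CPM, the median coefficient of variation was 13.6% in CFA and 17.5% in saline libraries, against 13.9% and 18.6% over all 9899 genes at that level. The log2 fold change was positive for 34 of these 46, against 4926 of the 9899. Its median was 0.10, against -0.00096. The gene bodies were long, with a median span of 32.0 kb against 14.6 kb over the table, from 1.97 kb for Kcna3 to 896 kb for Kcnip4. Exon sequence was shared with another gene model on the opposite strand by 8 of the 85 (Kcnd3, Kcnh3, Kcnip4, Kcnk3, Kcnmb4, Kcnn2, Kcnq1 and Kcnt2).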

How the data were processed

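The authors deposited raw counts per gene, 1 column per library, with exon intervals, strand and exon length, per the file headers. The build was mm10, and featureCounts 2.0.1, HISAT2 2.2.1, edgeR 3.32.1, SAMtools 1.13 and Trim Galore are listed, per the submitters' processing notes. Strand and multi-mapping settings: not given in the sources used here. Per the labels' protocols, polyadenylated RNA was amplified over 9 PCR cycles with the Smart-seq V4 kit, with 300 ng of cDNA used for Nextera XT libraries. Neither kit marks strand, and without molecular identifiers amplified copies are counted as reads, so floors cover counting error only.

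Sample titles gave the group and replicate number. Counts were tested with edgeR 4.0.16 (R 4.3.3): TMM scaling, the default filterByExpr filter, the quasi-likelihood test with treatment as the only term, and Benjamini-Hochberg adjustment over 13560 genes at 0.05. Standard errors were derived from the F statistic. CPM used the TMM factors, and levels between genes were divided by the deposited exon length. On simulated counts for 13560 genes, the test called 77% of genes changed by a log2 fold of 1.5 and 97% of those changed by 3, with 17 false calls. Each gene was simulated independently, without differences of whole libraries. Smaller folds were not simulated, and the median absolute log2 fold change of the tested potassium channel genes was 0.21. No 2 libraries were alike within sampling noise (the smallest chi-square per degree of freedom was 16.4). The 2 rows with a repeated symbol were kept under separate names. Promoter windows came from RefSeq (GRCm38.p6), with the start nearest to the deposited gene model. The bases after the start were found in a GENCODE M21 transcript of the gene for 52 of 61.

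The members, gene lists and naming rule were chosen with earlier results of these data known. The rule named members with an unadjusted p under 0.05, members without overlap and a mean of at least 4 CPM, the 15 highest per kb, the highest of each family, and Kcnj10, Kcnj16, Kcnk13 and Kcnj8. The values of 2 members are not reported here and are not drawn by gene, though counts over all members include them. Other members and the partner genes were named after their values were seen. Alternatives were RLE and library-size scaling, 2 other filters, DESeq2 1.42.0, limma-voom 3.58.1, the replicate number as a block, a threshold of 0.1 and each library left out. Of the marker lists, layer 6 corticothalamic markers had a median log2 fold change of -0.21, layer 6b markers -0.66, upper layer markers 0.12, excitatory markers 0.07, oligodendrocyte markers 0.0041, astrocyte markers 0.49, microglia markers 0.55, precursor markers 1.02, vascular markers -0.16, inhibitory markers 0.27 and striatal markers -1.01.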

Additional observations from a re-analysis of the deposited data

How the results depend on the processing

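Potassium channel genes called numbered 0 in all settings run, while the count over all genes tested, 0 in edgeR's quasi-likelihood test (437 at an unadjusted p under 0.05), was 9 with no low-count filter, 5 with DESeq2, 6 with the replicate block and 0 to 5 when each library was left out (5 without saline replicate 3). The median log2 fold change of the tested potassium channel genes was 0.13 with all libraries and ranged from 0.0822 (filter of 5 CPM in 3 libraries) to 0.136 over other settings, and from 0.0825 (without saline replicate 1) to 0.18 (without saline replicate 3) when each library was left out. Without the 7 tested genes that share exon sequence, an alternative chosen after seeing the data, it was 0.136. The labels do not say whether same-numbered libraries were paired. The correlations of their deviations from the group means were -0.079, 0.025 and -0.069, which cannot settle this with 3 libraries per group. The replicate block gave 0 calls among potassium channel genes and a median of 0.129. Among the named genes, direction changed for 4 near 0. Kcng1 was at -0.0051 with RLE scaling and -0.0050 with DESeq2, and from -0.096 to 0.099 with each library left out. Over the same fits Kcnk1 ran from -0.15 to 0.26, Kcna1 from -0.18 to 0.041 and Kcnv1 from -0.025 to 0.27. Of the 4 genes at an unadjusted p under 0.05, 2 (Kcna3 and Kcnh2) were left with the filter of 5 CPM in 3 libraries, under which Kcnmb2 was not tested. Kcnab3 was no longer under it with RLE scaling, DESeq2, limma-voom or the replicate block, and Kcna3, Kcnh2 and Kcnmb2 were under it in each of these 4. The causes were not tested. With a library left out, log2 fold changes of many named genes also moved by over 1.5 times. Examples were Kcnab2 (0.20 to 0.48), Kcnip3 (down to 0.16), Kcnh3 (0.22 to 0.51) and Kcnmb4 (-0.53 to -0.16). Kcnt1 ran from 0.039 to 0.55, Kcnf1 from 0.097 to 0.31 and Kcnma1 from -0.25 to -0.09. Kcna6 fell to 0.042, Kcnj4 to 0.064 and Kcnn2 to 0.093. With limma-voom Kcnj10 was at 1.78 and Kcnk13 at 1.63. Genes under 1 CPM rest on few counts at this depth.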
